A study of Mus musculus with 2 samples.

Results

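Rod photoreceptor RNA was followed in droplets from the retinal pigment epithelium (RPE) layer of the mouse eye, from which the neural retina had been removed. The 9 genes Sag, Gnat1, Pdc, Rcvrn, Prph2, Pde6b, Gngt1, Rp1 and Nrl, out of 32285 genes counted, were chosen by name as genes of rod photoreceptors and were matched by symbol, and all 9 were found. The Control library came from C57BL/6J mice aged 3 months whose subretinal space had received 1 µl of PBS, and the Dox library from mice of that strain and age given the same volume of doxorubicin, a drug that breaks DNA, at 100 ng/µl. In both groups the eyes were taken 7 days after the injection, and 10 eyes of 5 mice were pooled before the RPE, choroid and sclera were dissociated with papain and dead cells were removed. Each group was therefore 1 library, no test between groups could be made, and the treatment, the injected eyes and the library preparation cannot be told apart.

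Rods detect dim light in stacked membrane discs of the outer segment, where an activated photopigment switches on the G protein transducin, transducin releases a phosphodiesterase that breaks down cyclic GMP, and arrestin ends the response. The RPE lies against the outer segment tips, engulfs the shed discs every day and returns the retinoid that the photopigment uses, but it is not a neuron and is not known for a phototransduction cascade of its own. Gnat1 and Gngt1 encode the alpha and gamma subunits of rod transducin, Pde6b a catalytic subunit of the phosphodiesterase, Pdc (phosducin) a protein that binds the beta and gamma subunits of transducin, Sag the rod arrestin, and Rcvrn (recoverin) a calcium sensor of the same cascade. Prph2 encodes a tetraspanin of the disc rim, Rp1 a microtubule protein of the outer segment, and Nrl a transcription factor that sets rod fate.

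On the mouse assembly GRCm38 (mm10), Sag lies on the plus strand at chr1:87803680-87845158, Pdc on the plus strand at chr1:150319417-150333906, and Rp1 on the minus strand at chr1:3999557-4409241. Gnat1 is on the minus strand at chr9:107674474-107679712, Rcvrn on the plus strand at chr11:67695326-67703333, and Prph2 on the plus strand at chr17:46910459-46924933. Pde6b is on the plus strand at chr5:108388391-108432397, Gngt1 on the plus strand at chr6:3993792-3997436, and Nrl on the minus strand at chr14:55518978-55524981. In GENCODE vM21, Pdc overlaps the gene 2310030A07Rik on the other strand, which had 0 UMIs (unique molecular identifiers, the tags that mark single RNA molecules) in the kept cells of either library, and Rcvrn overlaps Glp2r on the other strand, which had 2 UMIs in the kept Control cells and 1 in the kept Dox cells. On the same strand, Pdc overlaps Gm37764, and Rp1 overlaps Gm6101 and Gm37483. These same-strand genes were not among the genes counted, and whether their RNA added to the counts of Pdc and Rp1 was not tested.

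The 250 bases upstream of the annotated start are shown for 3 members: Sag, which was met in most cell types, and Pdc and Pde6b, which were highest per cell in RPE cells. The sequences are from RefSeq on GRCm38.p6, all on the plus strand, at chr1:87803430-87803679 for Sag, chr1:150319167-150319416 for Pdc and chr5:108388123-108388372 for Pde6b, written 5′ to 3′. Capitals mark matches on either strand to TAATCC, the core bound by the photoreceptor homeodomain factors CRX and OTX2 (GGATTA on the other strand), or to TGCTGA, a core of the site that NRL and related factors bind (TCAGCA on the other strand), and the motifs do not overlap in these sequences.
Sag: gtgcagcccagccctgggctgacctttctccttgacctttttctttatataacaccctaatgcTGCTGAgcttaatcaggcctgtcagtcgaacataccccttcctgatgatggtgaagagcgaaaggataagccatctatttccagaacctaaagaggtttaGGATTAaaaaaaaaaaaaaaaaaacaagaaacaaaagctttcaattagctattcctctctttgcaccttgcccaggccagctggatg
Pdc: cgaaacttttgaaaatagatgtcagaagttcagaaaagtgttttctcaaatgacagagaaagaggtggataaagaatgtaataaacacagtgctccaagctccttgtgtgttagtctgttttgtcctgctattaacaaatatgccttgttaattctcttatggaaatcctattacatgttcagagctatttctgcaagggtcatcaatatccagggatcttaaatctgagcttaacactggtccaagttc
Pde6b: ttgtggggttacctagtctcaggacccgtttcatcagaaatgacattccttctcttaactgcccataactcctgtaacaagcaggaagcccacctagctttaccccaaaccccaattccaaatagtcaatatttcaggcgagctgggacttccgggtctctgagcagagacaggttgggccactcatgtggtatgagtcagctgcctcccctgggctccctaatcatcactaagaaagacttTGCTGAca
Within this window, Sag held 1 match to each motif, Pde6b held 1 match to TGCTGA, and Pdc held no match to either. Of the 6 members with a RefSeq promoter in the table used (Sag, Pdc, Pde6b, Gngt1, Nrl and Prph2), 2 held TAATCC and 2 held TGCTGA, against 6.25% and 16.1% of all 32851 promoters of the same length. A match is a run of letters and was not read as a bound site.

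The 2 libraries held 20381 and 15649 droplets with 117731270 and 103997248 UMIs, and 20180 Control and 15426 Dox cells passed the filters, with medians of 4495 and 4995 UMIs. Of the barcodes, 441 were shared by the libraries, of which 427 were kept cells in both, and 0 of them carried rod UMIs in both. RPE cells were defined as cells with at least 10 UMIs of Rpe65, the retinoid isomerase of the RPE, which gave 1526 Control and 1630 Dox cells, of which 1297 and 1375 lay in the RPE-like cluster. Of the 6 other RPE genes listed, which the definition did not use, Rlbp1, Ttr, Rgr, Lrat and Rdh5 were 58.2-fold to 106-fold higher per cell in RPE than in fibroblast-like cells in Control and 49.7-fold to 69.9-fold higher in Dox, while Best1 was lower, at 0.488-fold and 0.456-fold (14 and 21 UMIs in RPE cells). Fibroblast-like (12704 and 9704 cells) and immune-like cells (1407 and 835, the macrophage-like and the NK or T-like clusters together) had fewer than 10 Rpe65 UMIs each. Another 49 Control and 51 Dox cells lay in the RPE-like cluster with fewer than 10 Rpe65 UMIs. They were counted among the kept cells outside the RPE. Depth differed between the types, with a median of 16013.5 UMIs per RPE cell in Control and 18115.5 in Dox, against 4685 and 5336 in fibroblast-like and 3944 and 3694 in immune-like cells.

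Rod RNA was rare everywhere. In all kept cells the 9 genes had 184 UMIs in 159 Control cells (0.788% of cells) and 343 UMIs in 269 Dox cells (1.74%). By member, the Control cells held 74 UMIs of Sag, 37 of Pdc, 21 of Gnat1, 18 of Pde6b, 14 of Rp1, 9 of Prph2, 7 of Gngt1, 3 of Rcvrn and 1 of Nrl. The Dox cells held 107 of Sag, 47 of Pdc, 36 of Rp1, 34 of Prph2, 33 of Gnat1, 33 of Gngt1, 23 of Rcvrn, 20 of Pde6b and 10 of Nrl. Sag, the arrestin gene, led in both libraries, and Nrl was the lowest of the 9 in both. Of the rod-bearing cells, 150 of 159 in Control and 246 of 269 in Dox had a single rod UMI.

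**Figure D1:**
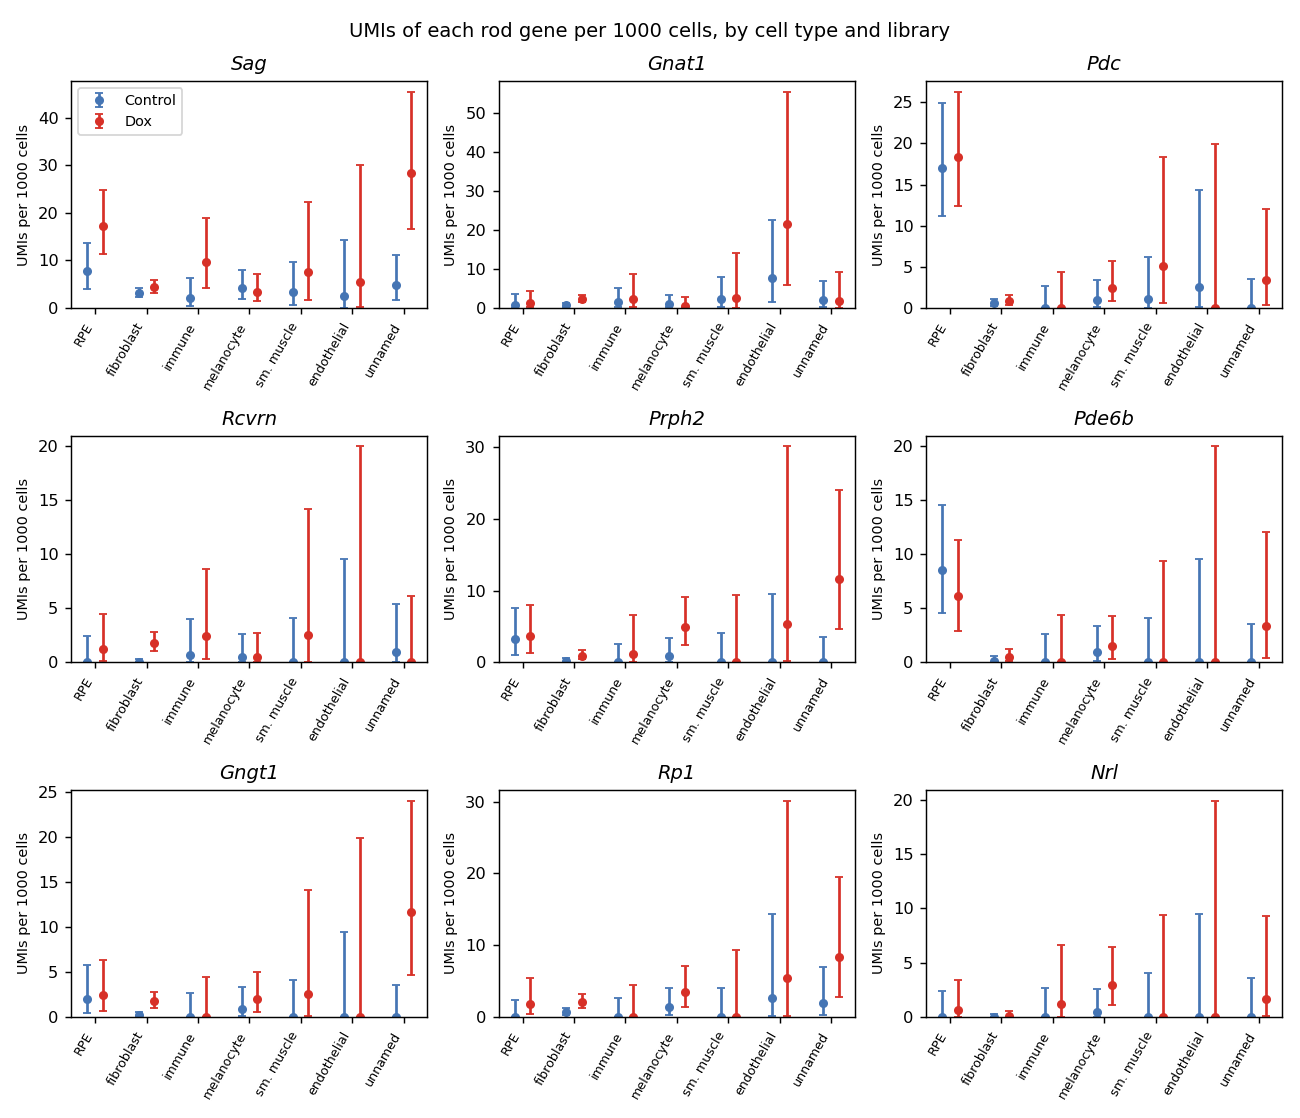
UMIs per 1000 cells of each of the 9 rod genes (y axis) in 7 groups of cells (x axis), in Control (blue) and Dox (red), 1 library each, with bars of the exact Poisson 95% interval, which covers counting error only. Pdc and Pde6b stand highest in RPE cells in both libraries, at 17.0 and 18.4 for Pdc and 8.52 and 6.13 for Pde6b, whereas Sag is spread over the types.

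Per cell, RPE cells carried more rod RNA than fibroblast-like or immune-like cells, and how much more depended on the member. The 9 genes together had 60 UMIs in Control RPE cells, or 39.3 per 1000 cells (95% interval 30.004 to 50.6, exact Poisson), against 69 UMIs, or 5.43 per 1000 (4.23 to 6.87), in fibroblast-like and 6 UMIs, or 4.26 per 1000 (1.56 to 9.28), in immune-like cells. In Dox, RPE cells had 86 UMIs, or 52.8 per 1000 (42.2 to 65.2), fibroblast-like cells 142, or 14.6 per 1000 (12.3 to 17.2), and immune-like cells 14, or 16.8 per 1000 (9.17 to 28.1). All intervals here and below are at 95% and cover counting error only, since PCR and pooling leave other errors that a single library cannot show. RPE cells were thus 7.24-fold higher than fibroblast-like cells in Control (5.04 to 10.4, exact conditional binomial) and 3.61-fold higher in Dox (2.73 to 4.75). Against immune-like cells, the Control ratio was 9.22 (3.997 to 26.1) and the Dox ratio 3.15 (1.78 to 6.00).

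RPE cells were also the deepest cells, and per UMI the difference was smaller. Given per 1000000 UMIs of the type (CPM), rod RNA in Control was at 2.28 CPM in RPE and 1.04 CPM in fibroblast-like cells, a ratio of 2.20 (1.53 to 3.15). In Dox it was at 2.76 and 2.54 CPM, a ratio of 1.09 (0.822 to 1.43), whose interval holds 1. Against immune-like cells, the Control CPM ratio was 2.71 (1.17 to 7.67) and the Dox CPM ratio 0.847 (0.478 to 1.61). The summed rod RNA of Dox was thus higher in RPE cells per cell but not per UMI.

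The members fell into 2 patterns between RPE and fibroblast-like cells, which the plot of ratios by member shows. Pdc had 26 UMIs in the 1526 Control RPE cells and 7 in the 12704 Control fibroblast-like cells, and 30 in the 1630 Dox RPE cells and 8 in the 9704 Dox fibroblast-like cells. Its level per cell was 30.9-fold higher in RPE in Control (13.1 to 84.4) and 22.3-fold higher in Dox (10.0 to 56.4), and per UMI it was 9.39-fold (3.97 to 25.6) and 6.73-fold higher (3.01 to 17.0). Pdc was the member with the highest level per cell in RPE cells in both libraries, although in Dox its 30 UMIs differed little from the 28 of Sag.

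Pde6b, the phosphodiesterase subunit, had 13 UMIs in Control RPE cells and 10 in Dox RPE cells, against 2 and 5 in fibroblast-like cells. Per cell it was 54.1-fold higher in RPE in Control (12.3 to 494) and 11.9-fold in Dox (3.71 to 44.4), and per UMI 16.4-fold (3.72 to 150.0) and 3.59-fold (1.12 to 13.4). No immune-like cell held a UMI of Pdc or Pde6b in either library, so that Pdc was at least 7.99-fold higher per cell in RPE than in immune-like cells in Control and at least 5.12-fold higher in Dox, taking 3 UMIs as the limit that a count of 0 allows. For Pde6b, these bounds were 3.995 and 1.71.

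Prph2, the disc rim gene, had 5 and 6 UMIs in RPE cells and 2 and 9 in fibroblast-like cells. Its ratio per cell was 20.8 in Control (3.41 to 219) and 3.97 in Dox (1.16 to 12.5). Per UMI, the ratio was 6.32 (1.03 to 66.4) in Control, and in Dox it was 1.20 (0.350 to 3.76), with an interval that holds 1.

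Sag, the arrestin gene, was higher in RPE per cell but not per UMI. It had 12 UMIs in Control RPE cells (7.86 per 1000 cells) and 40 in fibroblast-like cells (3.15 per 1000), a ratio of 2.50 (1.19 to 4.86), and 28 (17.2 per 1000) and 43 (4.43 per 1000) in Dox, a ratio of 3.88 (2.32 to 6.38). Per UMI, the ratios were 0.758 (0.362 to 1.47) and 1.17 (0.699 to 1.92).

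The other 5 members were at 0 to 4 UMIs in the RPE cells of either library. Gnat1, the transducin alpha gene, had 1 and 2 UMIs in RPE cells and 8 and 22 in fibroblast-like cells, with ratios per cell of 1.04 (0.0235 to 7.76) and 0.541 (0.0617 to 2.20). Rp1 had 0 and 3 UMIs in RPE cells against 8 and 20, so that its ratio was at most 3.12 per cell in Control and was 0.893 (0.170 to 3.01) in Dox. Gngt1 had 3 and 4 UMIs in RPE cells against 2 and 17, and its Dox ratio was 1.40 (0.343 to 4.29). Rcvrn had 0 and 2 against 0 and 17, with a Dox ratio of 0.700 (0.0785 to 2.95), and Nrl had 0 and 1 against 0 and 1. Per UMI, the Dox intervals of Gnat1 (0.163, 0.0186 to 0.664), Rcvrn (0.211, 0.0237 to 0.890) and Rp1 (0.269, 0.0512 to 0.908) lay below 1, and that of Gngt1 (0.422, 0.103 to 1.29) did not. The 1526 Control RPE cells held 0 UMIs of Rcvrn, Rp1 and Nrl. With 3 UMIs as the limit for a count of 0, this allows up to 1.97 UMIs per 1000 cells of each at this depth. That limit is not the upper end of the exact interval.

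**Figure D2:**
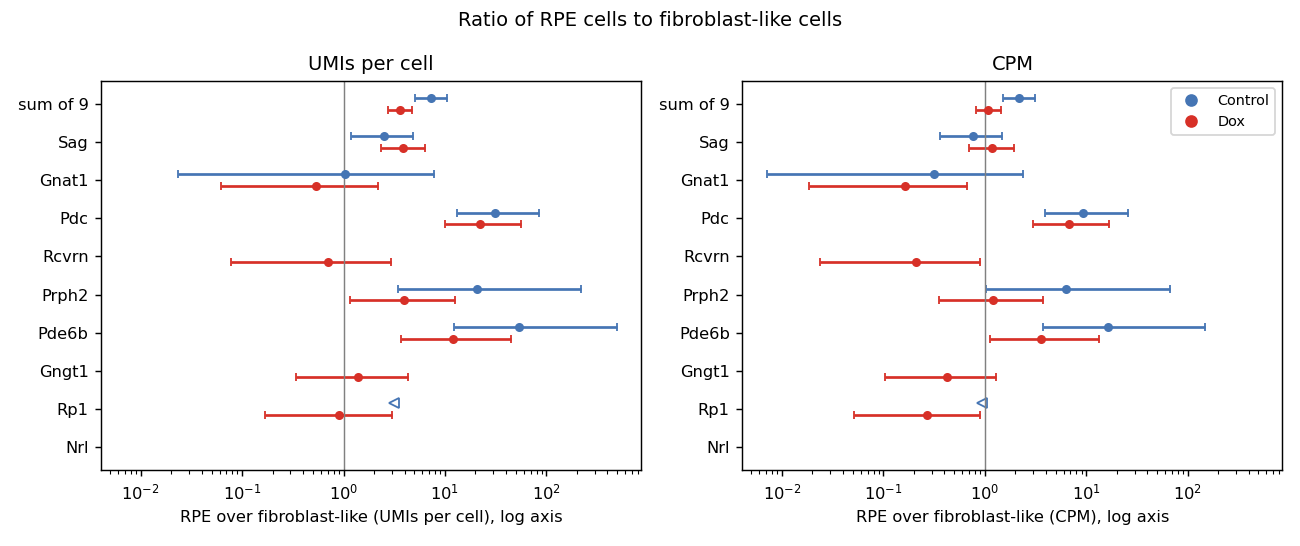
Ratio of RPE to fibroblast-like cells (x axes, log scale) for the sum of the 9 rod genes and for each gene, as UMIs per cell (left) and CPM (right), in Control (blue) and Dox (red), with exact conditional binomial 95% intervals of counting error. The open triangle is an upper bound (0 UMIs in RPE), and genes with 3 UMIs or fewer in both types have no mark. Pdc and Pde6b lie to the right of 1 in both units and libraries, and the Sag intervals cross 1 in CPM.

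Counted over the members, 4 of 9 were more than 2-fold higher per cell in RPE than in fibroblast-like cells in Control (Sag, Pdc, Prph2 and Pde6b), and the same 4 in Dox, while 0 were more than 2-fold lower in either, beside 5.59% of genes with 5 to 60 UMIs in Control and 7.91% in Dox. Among all genes with at least 50 UMIs over both types, 65.3% passed that fold in Control and 65.3% in Dox, and among genes with 5 to 60 UMIs, the range in which all members but Nrl and Rcvrn fell in Control, 57.2% and 54.1% did. In the range of 5 to 60 UMIs, 4 of 7 members passed the fold in Control and 3 of 7 in Dox, shares near or below that background. The median log2 ratio of the 6 members over the limit in Control was 3.01, against 1.67 over the 3991 genes with 5 to 60 UMIs. That of the 8 members in Dox was 1.22, against 1.73 over 4033 genes. These sets were not alike. The Control median took the upper bound of Rp1 as its ratio. It left out Gngt1, which had 3 UMIs or fewer in both types but fell in the range of 5 to 60 UMIs. The Dox median included Sag, which lay above that range. In CPM, 3 members were over 2-fold higher in Control (Pdc, Prph2 and Pde6b) beside 27.9% of such genes, and 1 was lower (Gnat1) beside 24.4%. In Dox CPM, 2 were higher (Pdc and Pde6b), beside 1210 of the 4033 genes, and 4 were lower (Gnat1, Rcvrn, Gngt1 and Rp1) beside 31.2%. Over immune-like cells, 3 members were over 2-fold higher per cell in Control (Sag, Pdc and Pde6b), beside 48.4% of genes of 5 to 60 UMIs and 68.0% of genes of at least 50, and 2 in Dox (Pdc and Prph2), beside 42.3% and 72.3%, and 0 were lower in either, beside 21.0% in Control and 22.0% in Dox of genes of 5 to 60 UMIs (9.41% and 8.71% of genes of at least 50, a range that held 0 members). In Dox CPM, Sag was over 2-fold lower than in immune-like cells, beside 41.8% of genes of 5 to 60 UMIs.

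The shares of some members among the rod UMIs, such as Pdc in both libraries, differed accordingly between RPE and fibroblast-like cells. That of Sag was lower in RPE cells in Control, while in Dox its intervals overlapped. In Control RPE cells Pdc made up 43.3% of the rod UMIs (30.6 to 56.8, Clopper-Pearson), Pde6b 21.7% (12.1 to 34.2) and Sag 20% (10.8 to 32.3). In Control fibroblast-like cells Sag made up 58.0% (45.5 to 69.8), Pdc 10.1% (4.18 to 19.8) and Pde6b 2.90% (0.353 to 10.1). Gnat1 and Rp1, with 1 of 60 UMIs between them in Control RPE cells, were each at 11.6% (5.14 to 21.6) in the fibroblast-like cells.

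In Dox RPE cells Pdc made up 34.9% (24.9 to 45.9), Sag 32.6% (22.8 to 43.5) and Pde6b 11.6% (5.72 to 20.3). In Dox fibroblast-like cells Sag made up 30.3% (22.9 to 38.5) and Gnat1 15.5% (9.97 to 22.5), followed by Rp1 at 14.1%, Rcvrn at 12.0%, Gngt1 at 12.0% and Pdc at 5.63% (2.46 to 10.8). The intervals of Pdc in RPE and fibroblast-like cells did not overlap in either library. Sag, Pdc and Pde6b, the members with the most UMIs in RPE cells in both libraries, together held 85.0% of the RPE rod UMIs in Control (73.4 to 92.9) and 79.1% in Dox (69.0 to 87.1). In fibroblast-like cells they held 71.0% (58.8 to 81.3) and 39.4% (31.3 to 48.0). A set that leads in RPE cells is bound to favour them, so no conclusion is drawn from this contrast.

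**Figure D3:**
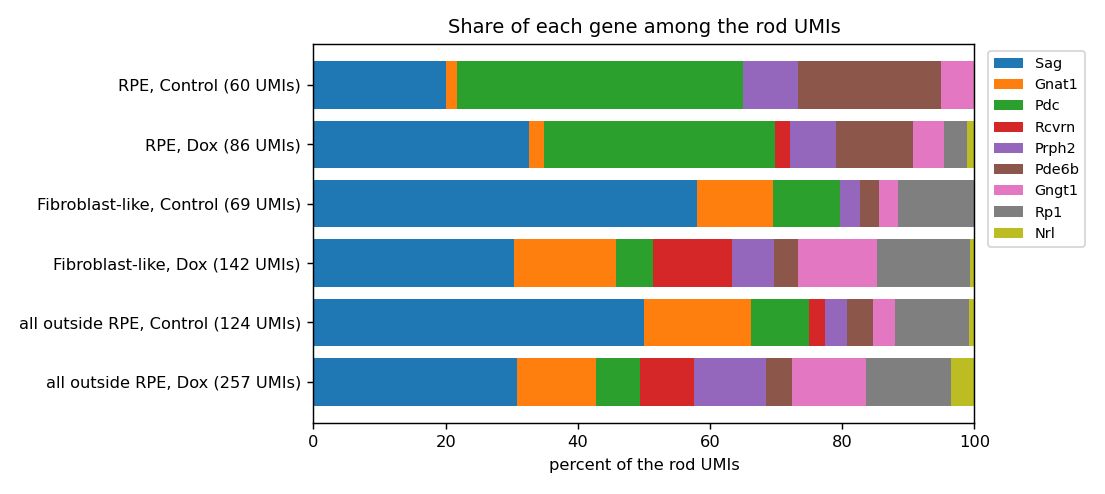
Share of each of the 9 genes among the rod UMIs (x axis, percent) in RPE cells, fibroblast-like cells and all kept cells outside the RPE, for Control and Dox, with the number of rod UMIs of each bar in its label. Pdc takes 43.3% and 34.9% of the RPE bars and 10.1% and 5.63% of the fibroblast-like bars.

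Because RPE cells were deeper, cells in the same range of depth were set side by side. Depth was not matched within a range, and RPE cells were still deeper on average at 10001 to 20000 UMIs. Among cells of 10001 to 20000 UMIs, the 498 Control RPE cells held 11 UMIs of Pdc (22.1 per 1000 cells, 11.03 to 39.5), and the 679 fibroblast-like cells held 0 (up to 5.43 per 1000 at the upper end of the interval). In Dox, the 420 RPE cells held 6 UMIs of Pdc (14.3 per 1000, 5.24 to 31.1) and the 686 fibroblast-like cells held 1 (1.46 per 1000, 0.0369 to 8.12). For Sag in this range, Control RPE cells had 8.03 per 1000 (2.19 to 20.6) and Dox RPE cells 16.7 (6.70 to 34.3), and the fibroblast-like cells 7.36 (2.39 to 17.2) and 7.29 (2.37 to 17.0). In this range, the intervals of the 2 cell types overlapped for Sag in both libraries and for Pdc in Dox, and did not overlap for Pdc in Control. In shallower Dox cells, the Sag intervals did not overlap. At 2001 to 5000 UMIs, Dox Sag was at 37.5 per 1000 (13.8 to 81.6) in RPE and 3.37 (1.80 to 5.77) in fibroblast-like cells. At 5001 to 10000 UMIs it was at 22.0 (8.07 to 47.8) and 5.25 (3.40 to 7.75). The Control intervals of Sag overlapped in both of these ranges. Overlap of 2 separate intervals does not show that the levels were equal.

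In the same depth range the 9 genes together were at 40.2 per 1000 cells in RPE (24.5 to 62.0) and 17.7 in fibroblast-like cells (9.13 to 30.9) in Control. In Dox they were at 50 (31.0 to 76.4) and 26.2 (15.6 to 41.5). The intervals overlapped in both libraries, which again does not show equal levels. Among cells of 5001 to 10000 UMIs, Control RPE cells held 2 rod UMIs in 266 cells (7.52 per 1000, 0.911 to 27.2), both of Sag, beside 8.10 per 1000 (5.79 to 11.035) in fibroblast-like cells, and Dox RPE cells held 9 in 273 (33.0 per 1000, 15.1 to 62.6) beside 16.8 (13.3 to 20.9). Among cells of 2001 to 5000 UMIs, the intervals did not overlap in either library. The 154 Control RPE cells held 4 rod UMIs (26.0 per 1000, 7.08 to 66.5), beside 2.31 (1.29 to 3.81) in fibroblast-like cells. The 160 Dox RPE cells held 7 (43.75 per 1000, 17.6 to 90.1), beside 11.2 (8.08 to 15.0). Rod RNA rose with depth within the fibroblast-like cells, from 2.31 per 1000 cells at 2001 to 5000 UMIs to 17.7 at 10001 to 20000 UMIs in Control and from 11.2 to 26.2 in Dox.

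**Figure D4:**
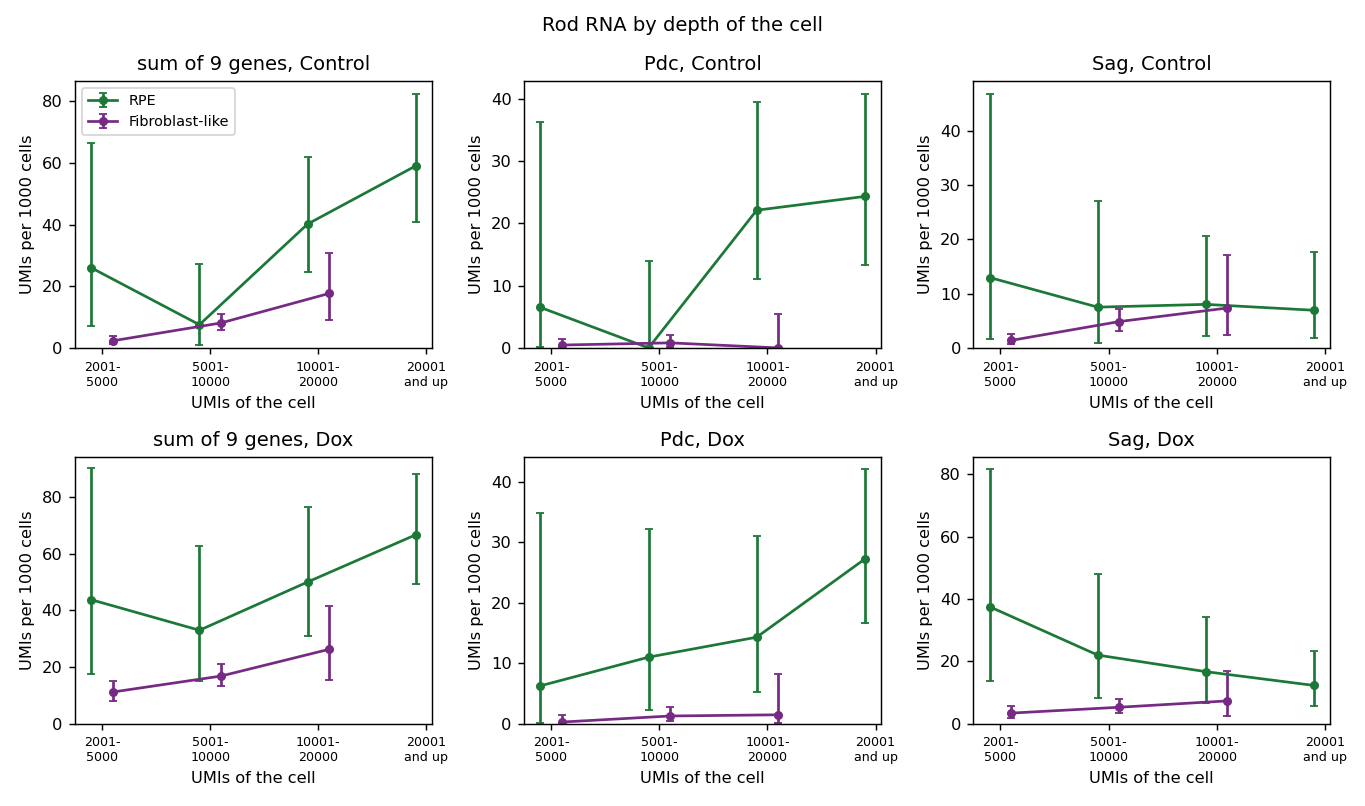
UMIs per 1000 cells (y axes) of the 9 rod genes together, of Pdc and of Sag in RPE (green) and fibroblast-like cells (purple) by the total UMIs of the cell (x axes), in Control (top) and Dox (bottom), with exact Poisson 95% intervals. Cells under 2001 UMIs and fibroblast-like cells over 20000 UMIs are not drawn. Pdc stays near 0 in fibroblast-like cells of every depth drawn, and in Control RPE cells it is at 22.1 and 24.3 in the deepest groups.

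The RPE cells with Pdc or Pde6b were deeper and had more Rpe65 than the RPE cells without the gene. All 25 Control and 28 Dox RPE cells with a Pdc UMI lay in the RPE-like cluster (100.0%), against 84.7% and 84.1% of the RPE cells without one. Their medians were 21514 and 25088.5 UMIs, against 15908 and 18011.5 in the RPE cells without Pdc. Their Rpe65 was at 5955 and 5621 CPM, against 4943 and 4850 CPM. Cells with and without a gene were not matched for depth here. The 12 Control and 10 Dox RPE cells with Pde6b were alike, with all cells in the RPE-like cluster. The 12 Control cells with Sag had a median of 16254 UMIs and 83.3% in the cluster, against 16013.5 UMIs and 85.0% without Sag. The 28 Dox cells with Sag had a median of 12230 UMIs and 89.3%, against 18211 UMIs and 84.3%.

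Across all kept cells sorted by their Rpe65 count, Pdc was low until Rpe65 was high. In Control, Pdc was at 0.557 per 1000 in the 7181 cells without an Rpe65 UMI, 0.658 with 1 or 2, 0.424 with 3 to 9, 2.69 with 10 to 29, 18.1 with 30 to 99 and 25.6 with 100 or more. In Dox, the same groups were at 0.301, 1.11, 2.45, 7.23, 15.1 and 29.2 per 1000. Pde6b followed, with 4.94 per 1000 at 30 to 99 and 18.3 at 100 or more Rpe65 UMIs in Control and 5.02 and 11.3 in Dox. Sag had its highest value below the top group in both libraries. In Control it was at 3.34 per 1000 without Rpe65, 13.2 (5.69 to 26.0) at 30 to 99 and 5.48 (1.13 to 16.0) at 100 or more, and in Dox at 6.33, 20.1 (10.4 to 35.1) and 9.72 (3.57 to 21.2), with 24.1 (11.6 to 44.3) at 10 to 29. From the cells without Rpe65 to those with 100 or more, Gnat1 went from 1.25 to 0 per 1000 in Control and from 2.11 to 3.24 in Dox. Rp1 went from 1.11 to 0 and from 2.11 to 1.62. The 9 genes together went from 7.80 to 60.3 per 1000 in Control and from 17.8 to 63.2 in Dox. In CPM, their sum went from 1.71 to 2.31 in Control but from 3.82 to 2.23 in Dox. Depth rose along with Rpe65 in these groups, from a median of 4103 to 24826 UMIs in Control.

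Co-detection of several rod genes in a cell was rare in RPE cells. Of the 55 Control RPE cells with rod RNA, 2 held 2 members, and of the 79 Dox cells 4 did, with 0 holding 3. With so few rod UMIs per cell, co-detection would be rare however the UMIs were spread, so no conclusion is drawn from it. The variance of the rod UMIs over their mean was 1.16 in Control and 1.13 in Dox RPE cells. Single UMIs scattered at random give a value of 1, and whether these values differed from it was not tested. In the melanocyte-like cluster the variance over the mean was 10.99 and 9.94, where a few droplets held most of the rod UMIs.

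A few droplets held rod RNA of many members at once. In Control, 1 droplet of the melanocyte-like cluster held 16 rod UMIs among only 844 UMIs (1.90%), with 8 of the 9 members (4 UMIs of Sag, 3 of Rp1, 2 each of Gnat1, Prph2 and Pde6b, and 1 each of Rcvrn, Gngt1 and Nrl) and with no Rpe65 UMI. In Dox, 1 droplet of the same cluster held 20 rod UMIs among 903 UMIs (2.21%), also with 8 members (9 UMIs of Prph2, 4 of Nrl, 2 of Pdc and 1 each of Gnat1, Rcvrn, Pde6b, Gngt1 and Rp1). Another Dox droplet, in an unnamed cluster led by Gfra3, Kcna1 and Snhg7os, held 11 rod UMIs among 2243 UMIs, of which 6 were Sag. The Control droplet held UMIs of 8 of the 23 other rod genes listed, and the Dox droplet of 20 rod UMIs held 7. The Dox droplets of 20 and 11 rod UMIs held 1 and 7 Rpe65 UMIs. Of the 7 RPE genes together, these Dox droplets held 33 and 44 UMIs, and the Control droplet held 7.

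The melanocyte-like cluster was named from pigment cell genes, but 1 of those (Pmel) was among its 10 leading genes, which were led by the hemoglobin gene Hbb-bs. Its cells were shallow, with a median of 1245 UMIs in Control and 775 in Dox. In all, 3 Control and 10 Dox cells had 3 or more rod UMIs, with 22 of the 184 Control and 71 of the 343 Dox rod UMIs. The richest droplet of each library held the 1 Control UMI of Nrl and 4 of its 10 Dox UMIs. The rod RNA of the Dox unnamed cells fell from 70.1 per 1000 cells (50.5 to 94.8) to 23.6 (12.9 to 39.5) without the cells of 3 or more rod UMIs, and that of the Dox melanocyte-like cells from 21.7 (15.8 to 29.1) to 9.87 (6.03 to 15.2). RPE cells were nearly unmoved, at 37.4 per 1000 in Control and 51.0 in Dox without such cells.

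Between the libraries, the interval for the summed rod RNA of RPE cells held no difference, while rod RNA outside the RPE was higher in Dox. In RPE cells the Dox over Control ratio of the 9 genes was 1.21 in CPM (0.859 to 1.71) and 1.34 per cell (0.954 to 1.90). Pdc was at 0.988 CPM in Control and 0.962 in Dox, a ratio of 0.973 (0.556 to 1.71), and Pde6b at 0.494 and 0.321, a ratio of 0.649 (0.255 to 1.60). Sag was at 0.456 and 0.897 CPM, a ratio of 1.97 (0.969 to 4.25), whose lower bound is just under 1, and per cell it was 2.18-fold higher (1.08 to 4.72), the one member whose interval per cell did not hold 1. In CPM, Sag was the 1 member over 1.5-fold higher, beside 19.4% of genes of 5 to 60 UMIs, and Pde6b the 1 member over 1.5-fold lower, beside 31.3% (1.66% and 4.92% of genes of at least 50 UMIs).

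In fibroblast-like cells, rod RNA was 2.69-fold higher per cell in Dox (2.01 to 3.65), and in immune-like cells 3.93-fold (1.42 to 12.5). By member, Rcvrn went from 0 to 17 UMIs in fibroblast-like cells (at least 7.42-fold per cell), Gngt1 from 2 to 17 (11.1-fold, 2.64 to 99.3), Prph2 from 2 to 9 (5.89-fold, 1.22 to 56.0), Gnat1 from 8 to 22 (3.60-fold, 1.54 to 9.35) and Rp1 from 8 to 20 (3.27-fold, 1.38 to 8.59). Pde6b went from 2 to 5 and Pdc from 7 to 8, with intervals that hold 1. Sag, with 40 and 43 UMIs, was 1.41-fold higher (0.893 to 2.22). Of the 7 members with 5 to 60 UMIs in these cells, 6 were over 2-fold higher, beside 13.4% of all genes in that range and 0.416% of genes of at least 50.

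Over all kept cells outside the RPE, rod RNA was at 6.65 UMIs per 1000 cells in Control and 18.6 in Dox, a ratio of 2.80 (2.25 to 3.50). The 8 members of 5 to 60 UMIs there (all but Sag) were all over 2-fold higher in Dox, beside 14.7% of the 4194 genes of that range and 0.539% of genes of at least 50, of which 1.27% were lower. Rcvrn (3 to 21 UMIs) was 9.46-fold higher (2.83 to 49.6), Prph2 (4 to 28) 9.46-fold (3.31 to 37.1), Gngt1 (4 to 29) 9.80-fold (3.44 to 38.4) and Nrl (1 to 9) 12.2-fold (1.69 to 533). Gnat1 was 2.10-fold higher (1.16 to 3.88), Rp1 3.19-fold (1.66 to 6.45) and Sag 1.72-fold (1.22 to 2.44), and the intervals of Pdc (2.09, 0.923 to 4.94) and Pde6b (2.70, 0.842 to 10.1) held 1.

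Without the cells of 3 or more rod UMIs, the summed ratio was 2.44 (1.91 to 3.12). Other RNA moved between the libraries too. Outside the RPE, the 7 RPE genes were 1.69-fold higher per cell in Dox, the 4 hemoglobin genes 1.19-fold higher, the cone genes 1.70-fold higher, and the 6 fibroblast genes 1.009-fold higher. Their part in the difference of the rod genes was not tested.

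**Figure D5:**
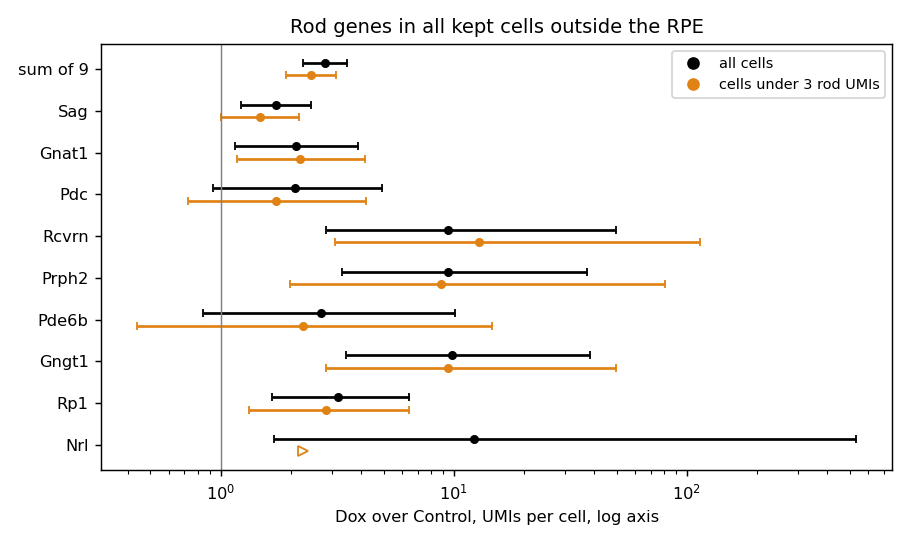
Dox over Control ratio of UMIs per cell (x axis, log scale) in all kept cells outside the RPE, for the sum of the 9 rod genes and each gene, with exact conditional binomial 95% intervals, over all cells (black) and without cells of 3 or more rod UMIs (orange). The sum stands at 2.80 and 2.44, Rcvrn, Prph2 and Gngt1 near 9 or above in both, and the open triangle of Nrl is a lower bound (0 Control UMIs).

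The other cell types gave few rod UMIs. Endothelial-like cells had 6 UMIs in 388 Control cells (15.5 per 1000, 5.67 to 33.7) and 7 in 185 Dox cells (37.8 per 1000, 15.2 to 78.0), of which Gnat1 gave 3 and 4 UMIs (7.73 and 21.6 per 1000), its highest level among the named types in both libraries. Smooth muscle-like cells had 6 UMIs in 906 Control (6.62 per 1000, 2.43 to 14.4) and 8 in 393 Dox cells (20.4 per 1000, 8.79 to 40.1). These 4 intervals overlapped with those of the fibroblast-like cells of the same library. Per UMI, RPE cells did not have the highest value in either library. Without cells of 3 or more rod UMIs, they were at 2.17 CPM in Control (1.64 to 2.81) and 2.66 in Dox (2.12 to 3.30). Endothelial-like cells were at 3.55 (1.30 to 7.72) and 9.06 (3.64 to 18.7), and unnamed cells at 3.71 (1.78 to 6.83) and 9.40 (5.14 to 15.8). The RPE interval overlapped both of these in Control, which leaves their order there unresolved, and neither in Dox. Melanocyte-like cells were at 1.32 and 6.92, and smooth muscle-like cells at 1.25 and 3.69. Immune-like cells were at 0.842 and 3.25, and fibroblast-like cells at 0.992 and 2.25.

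Other retinal genes were set beside the members in RPE cells. Of 23 further genes used as rod genes, 18 in Control and 19 in Dox had more than 3 UMIs in RPE or in fibroblast-like cells. In CPM, 10 of the 18 were over 2-fold higher in RPE than in fibroblast-like cells in Control, beside 27.9% of genes of 5 to 60 UMIs and 15.7% of genes of at least 50, and 3 were lower, beside 24.4% and 28.1%. In Dox 9 of the 19 were higher, beside 1210 of the 4033 genes of 5 to 60 UMIs and 16.8% of genes of at least 50, and 6 were lower, beside 31.2% and 28.7%. The median log2 ratio in CPM of the genes counted was 1.61 in Control and 0.84 in Dox. The highest was Slc24a1, a cation exchanger gene, at 423 and 437 CPM in RPE cells. Rom1, a partner of Prph2 in disc rims, was at 339 and 317 CPM. Next were Unc119 at 302 and 309 CPM and Abca4, a retinoid transporter gene, at 154 and 159 CPM. Each was far above the 9 members together, which were at 2.17 and 2.66 CPM in RPE cells of fewer than 3 rod UMIs. The paper lists Rom1 among the marker genes of cluster 1 of its Dox RPE cells. Whether the RNA of these genes came from rods or from RPE cells was not tested. Pde6g, which encodes the inhibitory subunit of the rod phosphodiesterase, had 20 and 27 UMIs in RPE cells against 1 and 11 in fibroblast-like cells.

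Cnga1, Impg1, Samd7 and Rp1l1 in both libraries and Nr2e3 in Control were the genes of the 23 that had at most 3 UMIs in each of the 2 cell types. Among the 9 cone genes, Gnat2, the cone transducin alpha gene, had 398 and 565 UMIs in RPE cells and Pde6c 113 and 91, while Opn1sw had 4 in each library, Opn1mw 0 and 3, and Arr3 3 in each.

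Genes that mark other cell types were also counted in RPE droplets. Per cell, 68.0% (Control) and 72.3% (Dox) of all genes of at least 50 UMIs were over 2-fold higher in RPE than in immune-like cells. Another 9.41% and 8.71% were over 2-fold lower. Among genes of 5 to 60 UMIs, 48.4% and 42.3% were higher and 21.0% and 22.0% lower. The counts below stand beside these shares. Per cell and relative to immune-like cells, 0 of 6 fibroblast genes passed 2-fold in either direction in either library, and 2 of 5 smooth muscle genes were over 2-fold higher in each, among them Acta2 at 4.28-fold and 5.99-fold. Of the 5 endothelial genes, 2 were higher and 1 lower in Control and 0 were higher and 3 lower in Dox, where Plvap stood at 1.72-fold and Pecam1 at 0.158-fold. Of the 4 hemoglobin genes, 3 were lower in each library and 0 higher. Few genes carried the other lists: Sox10 had 1833 and 2154 UMIs in RPE cells among the Schwann genes, Glul 24624 and 33302 among the Mueller glia genes, and Lim2 485 and 478 of the 505 and 497 lens UMIs. Of the other Mueller glia genes, Aqp4 had 0 and 3 UMIs in RPE cells, Slc1a3 11 and 20, and Kcnj10 6 and 0, beside 10 and 4 in immune-like cells. Of the 8 bipolar genes, 3 in Control and 4 in Dox had more than 3 UMIs in either cell type, of which 2 were higher in each library and 0 lower. Of the 9 amacrine, horizontal and ganglion cell genes only 1 and 2 did, and 0 of these were over 2-fold higher or lower. The part of RNA of other cells in the rod counts of RPE cells was not tested.

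Over the 14 pairs of named cell type and library, the 10 genes whose level per cell followed the summed rod level most closely were Eps8l2, Npr1, Gnb3, Gm6712, Wscd1, Slco1a4, Plscr2, Wipf3, A2m and Stox1, with Pearson's r from 0.858 down to 0.812 among 13616 genes of at least 200 UMIs. All 10 were higher per cell in RPE than in fibroblast-like cells in both libraries. Among all genes of at least 50 UMIs, 65.3% were over 2-fold higher in Control and 65.3% in Dox. Genes chosen to follow a sum that was higher in RPE cells are bound to favour them, so no conclusion is drawn from this count. The 14 points share 2 libraries, and depth differs between the types, so r is given as a description.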

How the data were processed

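Per the labels, the authors aligned 10x Genomics 5′ reads with Cell Ranger 4.0.0 to mm10 and deposited counts of UMIs per gene and droplet, filtered to cell barcodes. The annotation version is not given in the sources used here. A droplet was kept if it had more than 500 UMIs, between 200 and 6000 detected genes, less than a 0.2 share of mitochondrial UMIs, and a complexity (log10 of its genes divided by log10 of its UMIs) above 0.8. Clusters were made with Seurat 5.3.0 and sctransform 0.4.2 in R 4.3.3 (40 components, resolution 0.1, 3000 features, less the 14 among them that were listed retinal, hemoglobin or lens genes) and named from marker lists. Counts were summed per cell type in Python 3.11.15 (scipy 1.17.1), with exact 95% intervals and, for a count of 0, a limit of 3 UMIs. Ratios given as bounds (at least or at most) from that limit leave out the counting error of the other count. Each group was 1 library of pooled mice, so no test was run. The named genes were the 9 members, the genes of the lists given and the 10 genes most like the members by Pearson's r. Scrublet (scanpy 1.11.5) called 1941 doublets in Control and 0 in Dox, where it did not work, so doublets were left in and the highest scores were left out as an alternative. The members and lists were chosen with earlier results of these data known.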

Additional observations from a re-analysis of the deposited data

Results flagged for a closer look

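Droplets that the filters left out also held rod RNA. The 223 droplets left out in Dox had 12 rod UMIs in 11 droplets, or 53.8 UMIs per 1000 droplets (27.8 to 94.0), against 1 rod UMI in the 201 left out in Control, or 4.98 per 1000 (0.126 to 27.7). This was noted because these droplets were in no comparison and the Dox value lay above the Control value. Of the 12 UMIs, 5 were of Sag, 4 of Pdc and 1 each of Rcvrn, Prph2 and Pde6b, and the Control UMI was of Gngt1. The left-out Dox droplets included 79 with 6000 genes or more, against 35 in Control, and 8 of the 11 droplets with rod RNA were among the 79, with a median of 46032 UMIs over the 11. Per UMI, the values were 2.54 CPM (1.31 to 4.44) in Dox and 0.472 CPM (0.0119 to 2.63) in Control, with intervals that overlap.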

How the results depend on the processing

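Of 88 recomputed values, 69 stayed within the 95% counting interval of the reported value (counts of members within 1.5 times), 18 moved beyond it and 1 changed direction. These intervals are wide: log2 4.07 (16.8-fold) in Control against NK or T-like cells alone lies within that of the reported RPE over immune-like ratio of 9.22-fold. On the log2 scale, the RPE over fibroblast-like ratio per cell (2.86 in Control, 1.85 in Dox) became 1.70 and 0.87 with cells thinned to 2000 UMIs, 1.64 and 1.27 in cells of 5000 to 20000 UMIs, and 1.14 and 0.12 in CPM. The RPE over immune-like ratio (3.20 in Control, 1.65 in Dox) became 1.27 in Control with thinning (a lower bound), 1.44 in Control in CPM, 0.62 in Dox in cells of 5000 to 20000 UMIs, 2.74 in Dox against NK or T-like cells alone, and -0.24 in Dox in CPM, where the direction changed. The Dox over Control ratio in fibroblast-like cells (1.43) became 0.96 in cells of 5000 to 20000 UMIs. The number of members over 2-fold above immune-like cells (3 in Control, 2 in Dox) became 0 and 1 with thinning, 1 and 0 in CPM (beside 16.6% and 10.1% of genes of 5 to 60 UMIs), 1 and 1 against NK or T-like cells alone, and 0 in Dox in cells of 5000 to 20000 UMIs, with the share over all genes computed for CPM alone. Thinning left out cells under 2000 UMIs, 32 and 41 RPE, 589 and 396 fibroblast-like and 324 and 202 immune-like cells. The Dox over Control ratio in RPE cells stayed between 0.08 and 0.63 over its 10 alternatives. Leaving out cells of 3 or more rod UMIs, requiring the RPE-like cluster, and the background of genes of 5 to 60 UMIs were chosen after seeing the data. No paired analysis was possible because each group was 1 library. Counts of 0 to 30 UMIs per member in RPE cells limit every ratio of a single gene.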
